A study of Mus musculus with 20 samples.

Results

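Complement components and regulators were followed through 6 genes, C1ra, C2, C3, C4b, Cfb and Serping1, picked by symbol from the 27179 genes of the table. RNA was sequenced from PDGFRb+ cells sorted by flow cytometry from the inguinal white fat of male C57BL/6 mice into DPP4+ and DPP4- populations, which the labels call APCs and the series title progenitor cells. The 4 groups of 5 libraries each were DPP4+ cells of mice kept at 6 °C for 24 h, DPP4+ cells of mice kept at 22 °C, DPP4- cells of mice kept at 6 °C for 24 h, and DPP4- cells of mice kept at 22 °C. No transgene or treatment other than temperature is named in the labels, and they do not give the age of the mice or say whether animals were pooled. They also do not say whether the libraries of a group came from separate mice, so p-values measure the spread between these libraries, which may be technical.

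Complement is a set of plasma and membrane proteins that mark targets for removal and lyse cells. In the classical pathway the protease C1r, encoded here by C1ra, activates C1s inside the C1 complex, and C1s then cleaves C4 and C2, whose fragments form a convertase that cleaves C3. In the alternative pathway factor B, encoded by Cfb, binds cleaved C3 and is cut by factor D, and the enzyme formed cleaves more C3. Serping1 encodes C1 inhibitor, a serpin that inactivates C1r and C1s. The liver makes most plasma complement, and adipose tissue is a known source of factor D and C3.

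All 6 genes were measured well above the test's minimum of a mean of 10 normalized reads in every group. Of all reads, C3 alone took 0.974 ± 0.163% in DPP4+ cells at 6 °C and 1.14 ± 0.147% at 22 °C, and 1.05 ± 0.127% in DPP4- cells at 6 °C and 1.02 ± 0.0555% at 22 °C (SD, n = 5 each). By mean level C3 ranked 5 or 6 among the 27179 genes in each group. Together the 6 genes took 1.499% of the reads on average in DPP4+ cells and 1.81% in DPP4- cells at 6 °C, and 1.68% in both populations at 22 °C. At 6 °C the libraries overlapped, with 1.22% to 1.87% in DPP4+ cells and 1.59% to 2.08% in DPP4- cells.

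The promoters of C3 and C1ra are printed because, of the 6 members, only these 2 were among the RefSeq promoters used here. Each window (assembly GRCm38.p6) runs from 250 bases before to 50 after the start. The gap between the populations held under every scaling for C1ra and not for C3, as given below. The other 4 members, C2, C4b, Cfb and Serping1, are named only. C3 lies on the minus strand and its window is chr17:57228087-57228386, while C1ra lies on the plus strand with the window chr6:124512371-124512670. Capitals mark matches, on either strand, to letters searched for NF-kB (3 G, any 5 bases, 2 C), C/EBP (TTNNGNAA), STAT (TTCNNNGAA) and the TATA box (the 6 letters TATAAA), and overlapping matches run together.
C3: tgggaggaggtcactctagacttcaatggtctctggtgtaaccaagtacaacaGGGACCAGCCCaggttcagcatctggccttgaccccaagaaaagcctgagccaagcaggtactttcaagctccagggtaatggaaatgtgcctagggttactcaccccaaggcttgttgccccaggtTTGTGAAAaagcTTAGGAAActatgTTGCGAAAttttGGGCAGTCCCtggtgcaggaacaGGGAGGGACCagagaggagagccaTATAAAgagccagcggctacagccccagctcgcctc
C1ra: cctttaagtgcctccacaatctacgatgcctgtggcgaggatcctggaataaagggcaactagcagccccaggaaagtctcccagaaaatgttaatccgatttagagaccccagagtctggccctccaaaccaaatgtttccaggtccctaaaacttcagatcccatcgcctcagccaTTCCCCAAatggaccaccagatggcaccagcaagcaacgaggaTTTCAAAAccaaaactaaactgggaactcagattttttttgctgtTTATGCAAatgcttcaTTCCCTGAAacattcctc
The C3 window held 5 NF-kB matches, counted on both strands, with 2 at the same bases 33 before the start and 2 offset by 1 base near its upstream end. It also held 4 C/EBP matches, 2 of them at the same bases 45 before the start on both strands, and a TATA match 15 after the annotated start. The C1ra window held 3 C/EBP matches and 1 STAT match. These letters are common: of 27025 promoters of the same length, 50.4% held the NF-kB letters, 40.7% the C/EBP letters, 8.47% the STAT letters and 14.2% the TATA letters. The letters of an interferon response element (GAAA, any 2 bases, GAAA) were in neither window and in 3.49% of all promoters.

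The values below are the deposited normalized reads, given for replicates 1 to 5 of each group. C1ra, the first protease of the classical pathway, had 4406, 5311, 5203, 5332 and 7167 normalized reads in DPP4+ cells at 6 °C, against 10008, 11271, 10074, 11058 and 9294 in DPP4- cells at 6 °C. At 22 °C C1ra had 4309, 4855, 6182, 5577 and 5642 in DPP4+ cells, against 8168, 10713, 10573, 10602 and 10490.5 in DPP4- cells. Every DPP4+ library was below every DPP4- library, and within a population the temperatures overlapped.

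C4b, the classical and lectin pathway component C4, had 15968, 15176, 16460.2, 17679 and 25335 normalized reads in DPP4+ cells at 6 °C, against 73127, 57885, 49246, 70394 and 58385 in DPP4- cells at 6 °C. At 22 °C C4b had 15697, 17536, 20154, 18229 and 17122 in DPP4+ cells, against 45552, 49873, 49633.5, 56529 and 48273 in DPP4- cells. The populations stood far apart at both temperatures. In DPP4- cells, 4 of the 5 libraries at 6 °C were above all 5 libraries at 22 °C.

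C2, the protease partner of C4 in the classical C3 convertase, had 692, 857, 906, 1079 and 1265 normalized reads in DPP4+ cells at 6 °C, against 5798, 8933, 8052, 8082 and 6842 in DPP4- cells at 6 °C. At 22 °C C2 had 733, 978, 1010.3, 983 and 933 in DPP4+ cells, against 7503, 7548, 7374, 8357 and 8313 in DPP4- cells. Of the 6 genes it showed the widest gap between the populations at both temperatures.

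C3, on which all pathways converge, had 83309.8, 105098, 110793, 111280 and 148022 normalized reads in DPP4+ cells at 6 °C, against 163950, 161193, 145126, 201406 and 156437 in DPP4- cells at 6 °C. At 22 °C C3 had 102773, 109306, 153325, 129217 and 136601 in DPP4+ cells, against 179913, 159763, 172456, 181513 and 168228 in DPP4- cells. The populations did not overlap at 22 °C, and at 6 °C replicate 5 of the DPP4+ cells was above replicate 3 of the DPP4- cells.

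Cfb, the protease of the alternative pathway convertase, had 3689.7, 4395, 4435, 4463 and 5338 normalized reads in DPP4+ cells at 6 °C, against 6388, 6805, 5604, 6966 and 6020.4 in DPP4- cells at 6 °C. At 22 °C Cfb had 4626, 5064, 5203, 5395 and 5513 in DPP4+ cells, against 7418, 7236, 6013, 7199.9 and 7040.4 in DPP4- cells. The populations did not overlap at either temperature, with a smaller gap than for C1ra, C4b or C2.

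Serping1, the C1 inhibitor, had 24087, 31521, 29956, 30586 and 39718 normalized reads in DPP4+ cells at 6 °C, against 34322, 39132.5, 32190.1, 35117 and 29738 in DPP4- cells at 6 °C. At 22 °C Serping1 had 27140.3, 28082, 33461, 31972.5 and 33801 in DPP4+ cells, against 39404, 34924, 35486, 36291 and 38839.6 in DPP4- cells. The populations overlapped at 6 °C and lay just apart at 22 °C. On this deposited scale it differed least of the 6 genes between the populations. With library totals set equal, its log2 difference at 22 °C was 0.35, larger than the 0.15 of C3 and the 0.18 of Cfb.

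**Figure D1:**
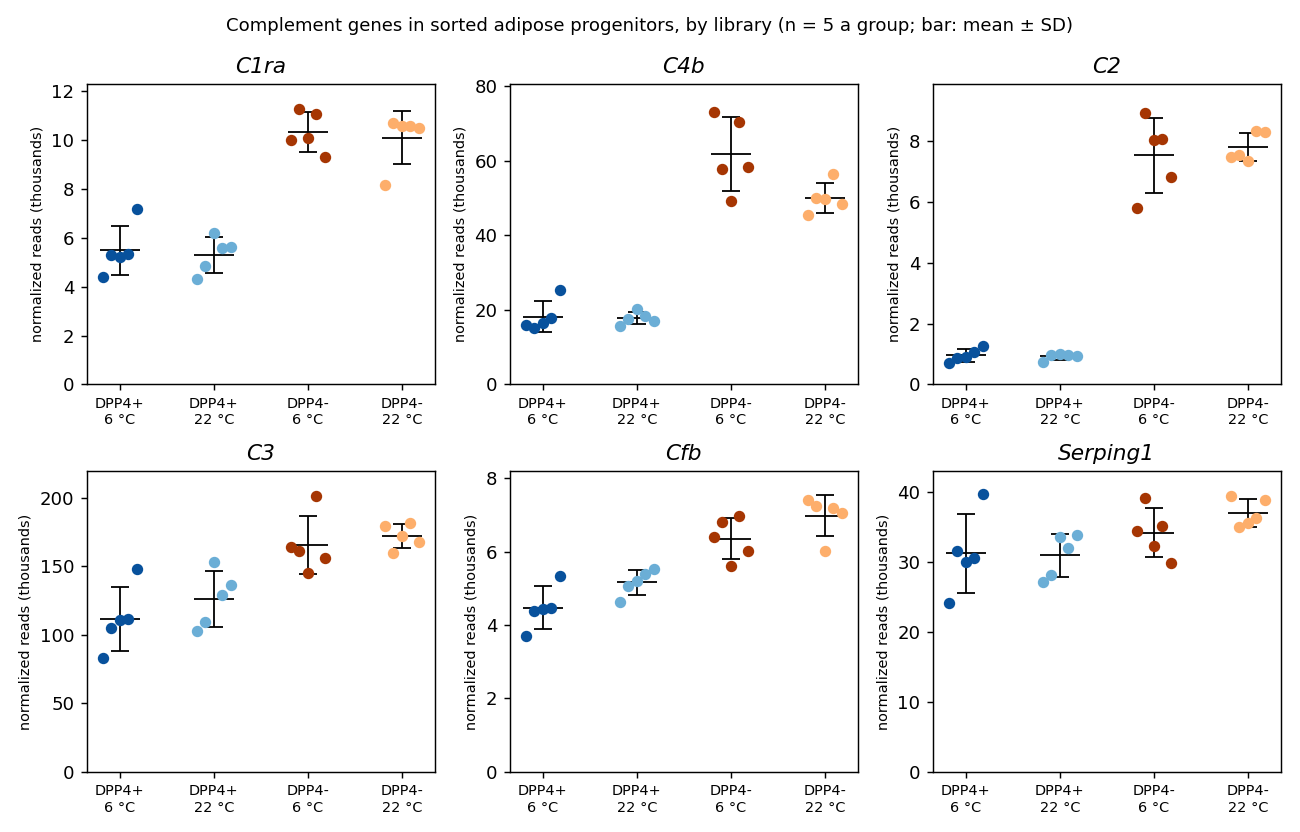
Deposited normalized reads (vertical axes, from 0) of the 6 complement genes in each library (points) of the 4 groups, with the group mean and SD (black bars, n = 5). C2, C4b and C1ra separate DPP4+ from DPP4- cells at both temperatures, C2 with means of 960 and 927 in DPP4+ cells at 6 and 22 °C against 7542 and 7819 in DPP4- cells, while the points of Serping1 lie close together.

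Replicate 5 of the DPP4+ cells at 6 °C was the highest of its group in all 6 genes, also after all library totals were set equal, and its normalized total of 12.1 M was the highest among DPP4+ libraries (1 M is 1e+06 reads). Replicate 1 of the same group was the lowest in 5 of the 6 genes on both scales. Replicate 1 of the DPP4+ cells at 22 °C, with the lowest normalized total, 10.2 M, was the lowest in all 6 genes as deposited and in 3 with totals set equal. Sequenced reads per library ranged from 8.49 to 18.8 M. Dpp4 itself, the sorted marker, averaged 10035 ± 2091 normalized reads in DPP4+ cells at 6 °C against 61.3 ± 42.4 in DPP4- cells at 6 °C, and 8546 ± 1158 in DPP4+ cells at 22 °C against 67.9 ± 21.6 in DPP4- cells at 22 °C (SD, n = 5).

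Per kilobase of the longest annotated coding transcript, on the deposited scale, the order of levels in DPP4+ cells at 6 °C was C3 at 21749 ± 4535, Serping1 at 17632 ± 3164, C4b at 3369 ± 768, C1ra at 1839.6 ± 341, Cfb at 1623 ± 213 and C2 at 363 ± 83.0 normalized reads per kb. There C3 and Serping1 overlapped in their ranges, and so did C1ra and Cfb. In DPP4+ cells at 22 °C the order was the same except that Cfb, at 1876 ± 125, stood just above C1ra, at 1782 ± 246, with overlapping ranges.

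In DPP4- cells C2 moved up the order: at 6 °C it stood at 2856 ± 464 normalized reads per kb, between C1ra at 3469 ± 273 and Cfb at 2311 ± 203, and its range overlapped with both. At 22 °C C2 stood at 2961 ± 180.2 per kb, with a range that overlapped with C1ra and lay above that of Cfb, at 2538 ± 203. C3, Serping1 and C4b kept the top places in DPP4- cells, C3 with 32247 ± 4139 per kb at 6 °C and 33562 ± 1732 at 22 °C (SD, n = 5).

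The populations were compared at each temperature to ask which of these genes distinguish DPP4+ from DPP4- cells. At 22 °C all 6 genes were called lower in DPP4+ cells, where 36.2% of the 13057 genes tested were called lower (limma on log2(value + 1), Benjamini-Hochberg adjusted p under 0.05 over all genes tested). The groups of 5 did not overlap for any of the 6, against 31.4% of all genes not overlapping and lower. The median log2 difference of the 6 was -0.70, beside 0.03 over all genes tested. At 6 °C, 5 of the 6 were called lower, where 35.7% of all genes were, and 4 did not overlap, against 27.4% of all genes not overlapping and lower. The median of the 6 at 6 °C was -0.76, again beside 0.03 over all genes.

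C2 was 7.86-fold lower in DPP4+ cells at 6 °C (log2 difference -2.99 ± 0.13 SE, limma adjusted p = 2.15e-14) and 8.43-fold lower at 22 °C (-3.08 ± 0.13, adjusted p = 1.51e-14). Each fold divides one group mean by the other, whereas each log2 difference comes from the fit. C4b was 3.41-fold lower at 6 °C (-1.78 ± 0.12, adjusted p = 3.00e-12) and 2.82-fold lower at 22 °C (-1.49 ± 0.12, adjusted p = 8.24e-11). C1ra was 1.89-fold lower at 6 °C and 1.90-fold lower at 22 °C (-0.93 ± 0.11 at both, adjusted p = 6.50e-08 and 6.16e-08). These 3 genes of the classical pathway were called lower under every scaling tried, with log2 differences at 22 °C of -2.47 for C2, -0.88 for C4b and -0.32 for C1ra when library totals were set equal. C3 was 1.48-fold lower in DPP4+ cells at 6 °C (-0.58 ± 0.13, limma adjusted p = 0.000309) and 1.37-fold lower at 22 °C (-0.46 ± 0.13, adjusted p = 0.00264).

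For C3, Cfb and Serping1 the direction depended on the scale. The authors' factors left DPP4+ libraries with normalized totals of 10.2 to 12.1 M and DPP4- libraries with 15.4 to 17.3 M, and setting totals equal moved the median of all genes by 0.61 (log2) at 22 °C and 0.46 at 6 °C. With totals equal, C3 at 22 °C changed from -0.46 to 0.15, Cfb from -0.43 (adjusted p = 6.38e-05) to 0.18 and Serping1 from -0.26 (adjusted p = 0.0262) to 0.35, and the last pair were then called higher in DPP4+ cells, as were 69.7% of all genes, with 15.6% called lower. At 6 °C Serping1 changed from -0.14 (95% interval -0.36 to 0.07, adjusted p = 0.225, not called) to 0.33, and C3 and Cfb, deposited at -0.58 and -0.52, were at -0.12 and -0.05 and no longer called, where 63.1% of all genes were called higher and 18.8% lower. Quantile normalization gave Serping1 0.60 at 22 °C and 0.51 at 6 °C, Cfb 0.13 at 22 °C, and no call for C3 at either temperature. Relative to the median of all genes, which a factor per library barely moves, C3 stood at -0.49 at 22 °C and -0.62 at 6 °C, Cfb at -0.46 and -0.55, and Serping1 at -0.29 and -0.17. The share of genes with a lower log2 difference was 26.3% for C3, 27.4% for Cfb and 34.0% for Serping1 at 22 °C, against 1.95% for C2, 7.83% for C4b and 14.5% for C1ra. Without replicate 5 of the DPP4+ cells at 6 °C, Serping1 at 6 °C was -0.23 and called lower (adjusted p = 0.0280). Its call at 22 °C was lost without any 1 of 4 libraries, replicates 1 and 2 of the DPP4+ cells and 1 and 5 of the DPP4- cells (-0.22 to -0.25), and with TMM factors (-0.16).

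**Figure D2:**
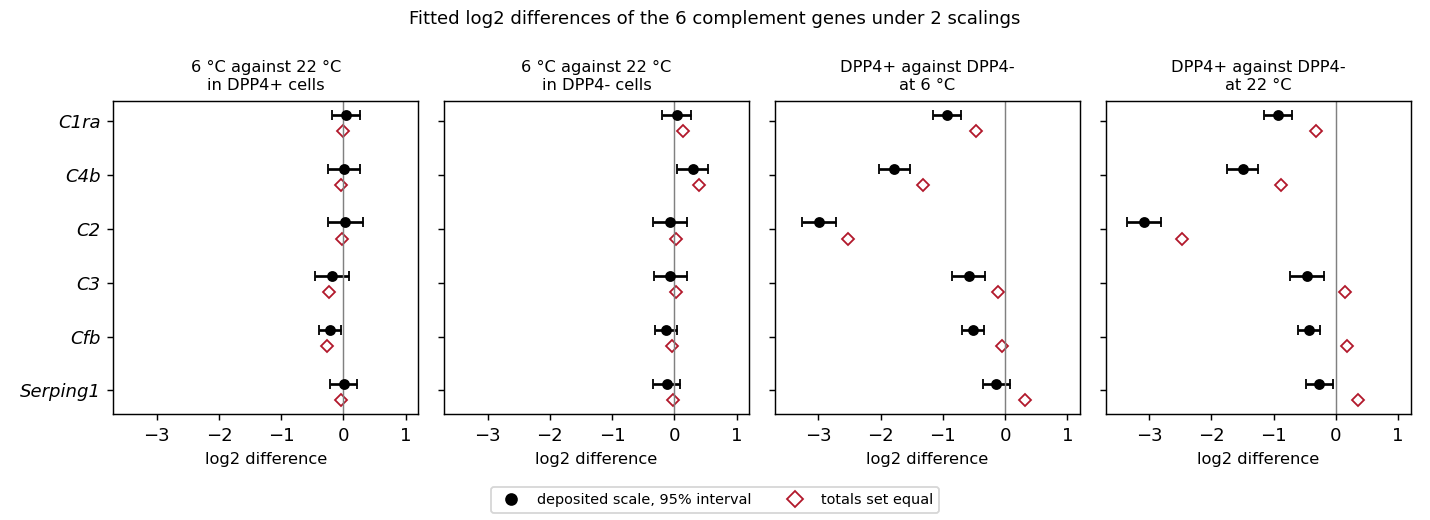
Fitted log2 differences (horizontal axes) of the 6 complement genes in 4 comparisons, on the deposited scale with 95% intervals (black circles) and with library totals set equal (open diamonds). C2 lies near -3 on the deposited scale in both comparisons of the populations, with -2.99 and -3.08, and Serping1 crosses 0 between the scales, with -0.26 and 0.35 at 22 °C.

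In bulk RNA, fewer cells that express a gene and less RNA per expressing cell cannot be told apart, which holds for every difference given here. Markers of other cell types also differed between the populations. The summed level of 12 mature adipocyte markers ranged from 6694 to 8591 normalized reads in DPP4+ cells at 6 °C against 38262 to 51764 in DPP4- cells at 6 °C, and from 11739 to 13567 in DPP4+ cells at 22 °C against 36064 to 48717 in DPP4- cells at 22 °C. Of the 9 of these markers tested, DPP4+ cells had 3 called higher and 4 lower at 6 °C, and 5 higher and 2 lower at 22 °C. The complement gene Cfd, described below, is on this list and was among those called higher at both temperatures. Among all genes, 38.5% were called higher and 35.7% lower at 6 °C, and 38.7% higher and 36.2% lower at 22 °C. Lpl made up most of the sum, with means of 6074 in DPP4+ cells against 35659 in DPP4- cells at 6 °C and 9683 in DPP4+ cells against 37662 in DPP4- cells at 22 °C, and Fabp4 was also lower in DPP4+ cells. Adipoq, which encodes adiponectin, was higher in DPP4+ cells, with means of 230.2 against 33.2 in DPP4- cells at 6 °C and 332 against 20.1 in DPP4- cells at 22 °C. Plin1, which coats the lipid droplet, averaged 342 in DPP4+ cells against 35.8 in DPP4- cells at 22 °C. The sum of 14 pericyte and smooth muscle markers ranged from 5825 to 8065 in DPP4+ cells at 6 °C against 35582 to 43537 in DPP4- cells at 6 °C, and from 11104 to 13490.2 in DPP4+ cells at 22 °C against 36437 to 43904 in DPP4- cells at 22 °C. Most of the sum in DPP4- cells was Steap4, which is also on the acute phase list, with means of 1150 in DPP4+ cells against 32394 in DPP4- cells at 6 °C and 1554 in DPP4+ cells against 35776 in DPP4- cells at 22 °C. Acta2 was higher in DPP4+ cells, with means of 3083 against 44.5 in DPP4- cells at 6 °C and 6046 against 45.6 in DPP4- cells at 22 °C, and Tagln and Cnn1 were also called higher there. Of the 13 of these markers tested, DPP4+ cells had 4 called higher and 6 lower at 6 °C, and 4 higher and 7 lower at 22 °C. Their part in the complement differences was not tested.

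Macrophage markers were low, with sums of 12 genes of 123 to 205 in DPP4+ cells at 6 °C against 93.0 to 495 in DPP4- cells at 6 °C, and 116 to 149.9 in DPP4+ cells at 22 °C against 162 to 210.3 in DPP4- cells at 22 °C. This list includes C1qa, C1qb and C1qc. In DPP4- cells at 6 °C, Lyz2 had 184 in replicate 2 and at most 16.2 in the others. Sums of 12 granulocyte and mast cell markers were at most 28.3 in DPP4+ cells. In DPP4- cells they were 12.3 to 2325 at 6 °C and 21.6 to 412 at 22 °C. Of 5 dendritic cell markers tested, 4 were called lower in DPP4+ cells at each temperature (shares of all genes below). The part of these markers was not tested. Of 8 hepatocyte markers 7 were found by symbol, and these reached at most 12.2 normalized reads in the sum of any library. Among them, Ttr and Serpina1a had 0 reads in all 20 libraries. The 12 endothelial markers summed higher in DPP4+ cells, with means of 3385 against 1327 in DPP4- cells at 6 °C and 3050 against 1366 in DPP4- cells at 22 °C. Tek made up most of each sum, with means of 2983 in DPP4+ cells against 944 in DPP4- cells at 6 °C and 2811 in DPP4+ cells against 888 in DPP4- cells at 22 °C. Of the 10 endothelial markers tested, DPP4+ cells had 3 called higher and 6 lower at 6 °C, and 1 higher and 5 lower at 22 °C, with Pecam1 and Cdh5 lower at both. The shares of all genes were 38.5% higher and 35.7% lower at 6 °C, and 38.7% higher and 36.2% lower at 22 °C. Of 10 progenitor markers 9 were in the table and had reads in every group. Pdgfrb, on which all cells were sorted, averaged 1505 ± 80.7 in DPP4+ cells at 6 °C against 4124 ± 543 in DPP4- cells at 6 °C, and 2942 ± 226 in DPP4+ cells at 22 °C against 4126 ± 333 in DPP4- cells at 22 °C.

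Ratios between the genes within a library do not depend on any scaling factor, so they show how the makeup of the complement transcripts differed. In all, 64 ratio comparisons were made, from 15 pairs of the 6 genes, which share genes and are not independent, and from C1s1 over C1ra. Each was tested by a two-sided exact permutation test over libraries on log2 ratios, whose smallest possible p is 0.00794, with Benjamini-Hochberg adjustment over the 64. The ratio differed between DPP4+ and DPP4- cells in 14 of the 15 pairs at 6 °C and in 12 at 22 °C. By limma, 38.5% of all genes were called higher and 35.7% lower at 6 °C, and 38.7% and 36.2% at 22 °C. The share among pairs of other genes was not computed, here or for cold, so these counts cannot be read as particular to complement.

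C2 over Cfb, the paralogous proteases of the classical and alternative convertases, was 0.213 ± 0.0247 in DPP4+ cells at 6 °C against 1.19 ± 0.200 in DPP4- cells at 6 °C, and 0.179 ± 0.0155 in DPP4+ cells at 22 °C against 1.12 ± 0.0925 in DPP4- cells at 22 °C (SD, n = 5; exact permutation p = 0.00794 for each, adjusted 0.0169). C2 thus had fewer reads than Cfb in every DPP4+ library and more in every DPP4- library but replicate 1 at 6 °C, at 0.908. C3 over C4b was 6.20 ± 0.691 in DPP4+ cells at 6 °C against 2.70 ± 0.276 in DPP4- cells at 6 °C, and 7.09 ± 0.722 in DPP4+ cells at 22 °C against 3.46 ± 0.304 in DPP4- cells at 22 °C, with the same exact p-values. C4b over Serping1 was 0.582 ± 0.0722 in DPP4+ cells at 6 °C against 1.82 ± 0.296 in DPP4- cells at 6 °C, and 0.576 ± 0.0444 in DPP4+ cells at 22 °C against 1.36 ± 0.158 in DPP4- cells at 22 °C (exact permutation p = 0.00794, adjusted 0.0169).

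C3 over Cfb did not differ by the test in any comparison. It was 24.8 ± 1.89 in DPP4+ cells at 6 °C and 24.4 ± 3.11 at 22 °C, and 26.0 ± 1.87 in DPP4- cells at 6 °C and 24.8 ± 2.44 at 22 °C. The lowest exact permutation p of the 4 was 0.333 (adjusted 0.444), at 6 °C between the populations. A p that misses the threshold does not show that the ratio was equal.

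**Figure D3:**
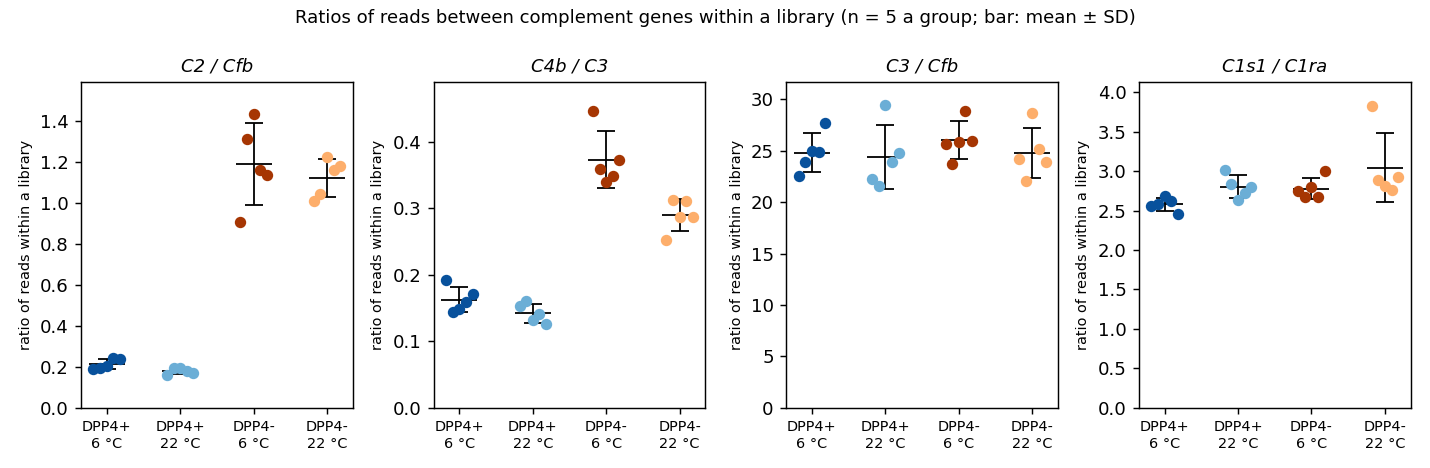
Ratios of whole reads between pairs of complement genes within each library (vertical axes from 0, points) in the 4 groups, with mean and SD (black bars, n = 5). C2 over Cfb and C4b over C3 separate the populations, C2 over Cfb with 0.213 and 0.179 in DPP4+ cells at 6 and 22 °C against 1.19 and 1.12 in DPP4- cells, while C3 over Cfb has means between 24.4 and 26.0 in all groups.

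Exposure to 6 °C for 24 h was compared with 22 °C to ask which of these genes differ with cold in each population. In DPP4+ cells 1 of the 6 genes was called, Cfb, which fell to a mean of 4464 ± 585 normalized reads at 6 °C, against 5160.2 ± 345 at 22 °C (log2 difference -0.22 ± 0.08 SE, limma adjusted p = 0.0391), in a comparison in which 46.1% of all genes were called and 22.6% were called lower. The groups overlapped. The Cfb call was lost without any 1 of 8 of the 10 DPP4+ libraries (adjusted p up to 0.142, without replicate 1 at 6 °C), that is, without each but replicate 5 at 6 °C and replicate 1 at 22 °C. In this comparison 1 mature adipocyte marker was called higher and 3 lower of 9 tested, where 23.5% of all genes were called higher. Of 13 pericyte and smooth muscle markers, 2 were called higher and 6 lower. The part of both sets of markers in the Cfb call was not tested.

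C3 averaged 111701 ± 23291 at 6 °C and 126245 ± 20538 at 22 °C in DPP4+ cells, a log2 difference of -0.19 with a 95% interval of -0.45 to 0.08 that did not pass (adjusted p = 0.254). It was -0.29 and called without replicate 5 at 6 °C (adjusted p = 0.0442). C1ra, C2, C4b and Serping1 had log2 differences of 0.04, 0.03, 0.01 and 0.0007, and the widest of their 95% intervals, that of C2, ran from -0.25 to 0.31.

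Within libraries, 4 of the 15 ratios differed by cold in DPP4+ cells, all with C3 or Cfb lower relative to C1ra or Serping1. C3 over Serping1 was 3.57 ± 0.169 at 6 °C against 4.07 ± 0.306 at 22 °C, and Cfb over Serping1 was 0.144 ± 0.00737 at 6 °C against 0.168 ± 0.00919 at 22 °C, with no overlap in either (n = 5, exact permutation p = 0.00794, adjusted 0.0169). C1ra over C3 was 0.0493 ± 0.00237 at 6 °C against 0.0422 ± 0.00160 at 22 °C, also without overlap and with the same exact p. C1ra over Cfb was 1.22 ± 0.0683 at 6 °C against 1.03 ± 0.0998 at 22 °C (exact permutation p = 0.0159, adjusted 0.0308).

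In DPP4- cells none of the 6 genes was called by limma, edgeR or DESeq2, in a comparison in which limma called 5.22% of all genes, and 1 of the 6, C4b, had an unadjusted p under 0.05, as had 20.5% of all genes. C4b averaged 61808 ± 9833 normalized reads at 6 °C and 49972 ± 4048 at 22 °C in DPP4- cells (log2 difference 0.30 ± 0.12 SE, limma adjusted p = 0.159), and 91.1% of all genes had a lower log2 difference. It was called with totals set equal (0.39, adjusted p = 0.0258, where 7.01% of all genes were called higher and 1.74% lower) and with quantile normalization (0.47, adjusted p = 0.0345). The other 5 genes ranged from -0.14 for Cfb to 0.04 for C1ra.

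The 3 of 15 ratios that differed by cold in DPP4- cells all held C4b. C4b over Cfb was 9.71 ± 1.17 at 6 °C against 7.20 ± 0.847 at 22 °C, and C3 over C4b was 2.70 ± 0.276 at 6 °C against 3.46 ± 0.304 at 22 °C, both without overlap (n = 5, exact permutation p = 0.00794, adjusted 0.0169). C4b over Serping1 was 1.82 ± 0.296 at 6 °C against 1.36 ± 0.158 at 22 °C (exact permutation p = 0.0238, adjusted 0.0435). The mature adipocyte markers moved in the same comparison, with 5 of the 9 tested called higher and none lower at 6 °C in DPP4- cells. Of all genes tested there, 1.98% were called higher and 3.23% lower. Their part in the C4b ratios was not tested.

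The cold effects in DPP4+ and DPP4- cells did not differ for any of the 6 genes by limma, edgeR or DESeq2, and none had an unadjusted p under 0.05, where limma called 33.2% of all genes, 16.8% higher and 16.4% lower, and 42.6% had such a p. The largest difference was that of C4b, -0.29 (DPP4+ minus DPP4-) with a 95% interval of -0.64 to 0.07 (limma adjusted p = 0.210). It was called with totals set equal (-0.43, adjusted p = 0.0331, where 23.4% of all genes were called lower and 8.64% higher) and without replicate 5 of the DPP4+ cells at 6 °C (-0.41, adjusted p = 0.0220). With quantile normalization Cfb was called instead (-0.28, adjusted p = 0.0451).

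The likeness of profiles over the 20 libraries was measured, as a description, by the root mean square difference of log2(value + 1) after centring each gene, with library and population shared by all points. Among 13056 other genes the profile nearest to C3 was that of Cfb (0.126), ahead of Relb and Ctso, where the median gene was at 0.497. From the side of Cfb, Fermt2, Acot9 and Naglu were nearer (0.0773 to 0.0874). Nearest to C2 were Pltp, Cp and Entpd2 (0.157 to 0.187), to C4b Tor3a, H2-K1 and Zbp1 (0.146 to 0.180), to C1ra Erap1, Klhl13 and Klf9 (0.106 to 0.117), and to Serping1 Ehbp1, Actg1 and Manba (0.0861 to 0.0887).

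C2, Cfb and C4b lie in the same stretch of mouse chromosome 17 (GRCm38), all on the minus strand. Cfb spans bases 34856374 to 34862514, C2 begins 87 bases further on, at 34862602, and ends at 34882100, and C4b lies 112471 bases to the other side of Cfb, at 34728139 to 34743902. C2 and Cfb, side by side, differed in their gap between the populations, as the ratios above show. C3 lies elsewhere on chromosome 17, at 57203967 to 57228136, also on the minus strand. C1ra, at 124512621 to 124523440 on the plus strand of chromosome 6, lies 6903 bases from C1s1, and Serping1 is on the minus strand of chromosome 2, at 84765360 to 84775444.

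Near copies limit how far reads can be assigned. Of the 50-base windows of the longest coding transcript, C4b shared 35.2% with C4a, C1ra shared 48.0% with C1rb, C2 shared 58.0% and Cfb 81.4% with the annotated readthrough gene Gm20547, and C2 and Cfb shared none with each other. The values of these genes are uncertain to the extent that the authors' counting split such reads. C2 also overlaps Zbtb12 on the other strand, and the strand used in counting is not given in the sources used here. The copies had few reads of their own, chosen for naming after their values were seen: C4a averaged 21.7 ± 4.99 in DPP4+ cells at 6 °C and 23.9 ± 3.01 at 22 °C, and 70.1 ± 20.2 in DPP4- cells at 6 °C and 56.8 ± 3.99 at 22 °C. C1rb had 258 and 324 normalized reads in replicates 1 and 5 of the DPP4+ cells at 22 °C and at most 47.0 in each of the other libraries.

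Of 54 other complement genes, all in the table, 24 passed the level minimum, and at 22 °C 3 of them were called higher and 17 lower in DPP4+ cells, with a median log2 difference of -1.05. At 6 °C 5 were called higher and 15 lower, with a median of -1.01. All genes tested were called higher in 38.7% and lower in 36.2% at 22 °C, and higher in 38.5% and lower in 35.7% at 6 °C. With totals set equal the counts were 6 higher and 13 lower at 22 °C and 6 higher and 11 lower at 6 °C, beside 69.7% of all genes higher and 15.6% lower at 22 °C, and 63.1% higher and 18.8% lower at 6 °C. In the cold 3 were called higher and 4 lower in DPP4+ cells, where 23.5% of all genes were called higher and 22.6% lower. In DPP4- cells 1 was called higher and 3 lower, where 1.98% of all genes were called higher and 3.23% lower.

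Genes of this list that averaged 100 or more are described by role. C1s1, which encodes the C1s protease that C1r activates, averaged 14111 ± 2264 in DPP4+ cells at 6 °C against 28644 ± 1099 in DPP4- cells at 6 °C, and 14826.5 ± 1376 in DPP4+ cells at 22 °C against 30401 ± 836 in DPP4- cells at 22 °C (log2 differences -1.04 at both, limma adjusted p = 2.00e-10 and 1.88e-10). C1s1 over C1ra was 2.58 ± 0.0820 in DPP4+ cells at 6 °C and 2.81 ± 0.143 at 22 °C, and 2.78 ± 0.136 in DPP4- cells at 6 °C and 3.04 ± 0.441 at 22 °C. That ratio was lower in the cold in DPP4+ cells (exact permutation p = 0.0159, adjusted 0.0308) and lower in DPP4+ than in DPP4- cells at 6 °C (exact permutation p = 0.0238, adjusted 0.0435). The genes of C1q, the recognition unit that C1r and C1s bind, were near 0, chosen for naming after their values were seen: summed over 5 libraries, C1qa had 17 reads in DPP4+ cells at 6 °C and 18 at 22 °C, and 30 in DPP4- cells at 6 °C and 22 at 22 °C, and C1qb and C1qc had fewer in each group.

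Cfd encodes factor D, the protease that cuts factor B and a secreted product of fat cells. It averaged 321 ± 75.1 normalized reads in DPP4+ cells at 6 °C against 77.8 ± 37.6 in DPP4- cells at 6 °C, and 648 ± 66.2 in DPP4+ cells at 22 °C against 35.9 ± 25.2 in DPP4- cells at 22 °C. It was thus higher in DPP4+ cells at both temperatures (log2 difference 2.12 at 6 °C and 4.45 at 22 °C, limma adjusted p = 0.000196 and 2.53e-08), opposite to Cfb on the deposited scale. The cold effects on Cfd, -1.04 in DPP4+ cells (adjusted p = 0.0518) and 1.28 in DPP4- cells (adjusted p = 0.0849), did not pass in either population alone, and their difference of -2.33 did (adjusted p = 0.00597). The groups of DPP4+ cells did not overlap, and edgeR and DESeq2 both called the fall in them (-1.02, adjusted p = 0.000227 by edgeR).

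Among regulators, Cd55, which encodes decay accelerating factor, a membrane protein that takes C3 convertases apart, ran against the members. In DPP4+ cells it had 9303, 10754, 9074, 8376 and 9938 normalized reads at 6 °C, against 3799, 4157, 5402, 4988 and 5843 at 22 °C. In DPP4- cells Cd55 had 815, 597, 459, 653 and 693 at 6 °C, against 759, 842, 769.6, 812 and 877 at 22 °C. It was 1.96-fold higher in the cold in DPP4+ cells (log2 0.98 ± 0.12 SE, limma adjusted p = 1.34e-06) with no overlap, and the value in DPP4- cells was -0.36 (adjusted p = 0.0963). The cold effects differed by 1.34 ± 0.18 (adjusted p = 4.66e-06). Between populations Cd55 was 14.7-fold higher in DPP4+ cells at 6 °C and 5.96-fold higher at 22 °C.

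Other regulators ran with the members. Vtn, encoding vitronectin, an inhibitor of the membrane attack complex, was 22.0-fold lower in DPP4+ cells at 6 °C and 15.9-fold lower at 22 °C (log2 -4.46 and -3.99, limma adjusted p = 2.58e-13 and 1.53e-12). Csmd1, a membrane regulator, was 7.67-fold lower at 6 °C and 7.63-fold lower at 22 °C (log2 -2.80 and -2.85). Cr1l, which encodes the rodent membrane regulator Crry, was at -0.30 at 6 °C and -0.34 at 22 °C and turned to 0.17 and 0.27 with totals set equal. Clu, encoding clusterin, another inhibitor of that complex, averaged 481 ± 28.5 in DPP4+ cells at 6 °C against 732 ± 594 in DPP4- cells at 6 °C, did not pass in any comparison of the limma fit, and varied widely between DPP4- libraries. At 22 °C it was called lower in DPP4+ cells by edgeR (-0.91, adjusted p = 0.0203) and by DESeq2 (-0.90, adjusted p = 0.0345).

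C7, a component of the membrane attack complex, was lower in DPP4+ cells, at 8781 ± 2583 against 20438 ± 2475 in DPP4- cells at 6 °C and 13734 ± 1890.4 against 38087 ± 11240.3 in DPP4- cells at 22 °C (log2 -1.26 and -1.44, limma adjusted p = 2.21e-06 and 3.30e-07). It fell in the cold in both populations, by 0.68 in DPP4+ cells (adjusted p = 0.00372) and by 0.86 in DPP4- cells (adjusted p = 0.00762). Colec12, a lectin-type scavenger receptor, also fell in the cold, by 0.50 in DPP4+ cells (adjusted p = 1.76e-07) and by 0.36 in DPP4- cells (adjusted p = 0.000756). Its difference between populations, -0.46 at 6 °C and -0.33 at 22 °C, turned to 0.01 and 0.29 with totals set equal. C1qbp, a mostly mitochondrial protein that binds C1q, rose in the cold in DPP4+ cells by 0.50 (adjusted p = 5.18e-07), and the cold effects differed by 0.31 (adjusted p = 0.00859). The remaining genes of this list called in the cold were outside the level rule and were named after their values were seen: Masp1 was higher in both populations, a call that edgeR did not make in DPP4- cells, Cd59a was lower in both, and C1rb was lower in DPP4+ cells, where its 22 °C level rested on replicates 1 and 5.

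**Figure D4:**
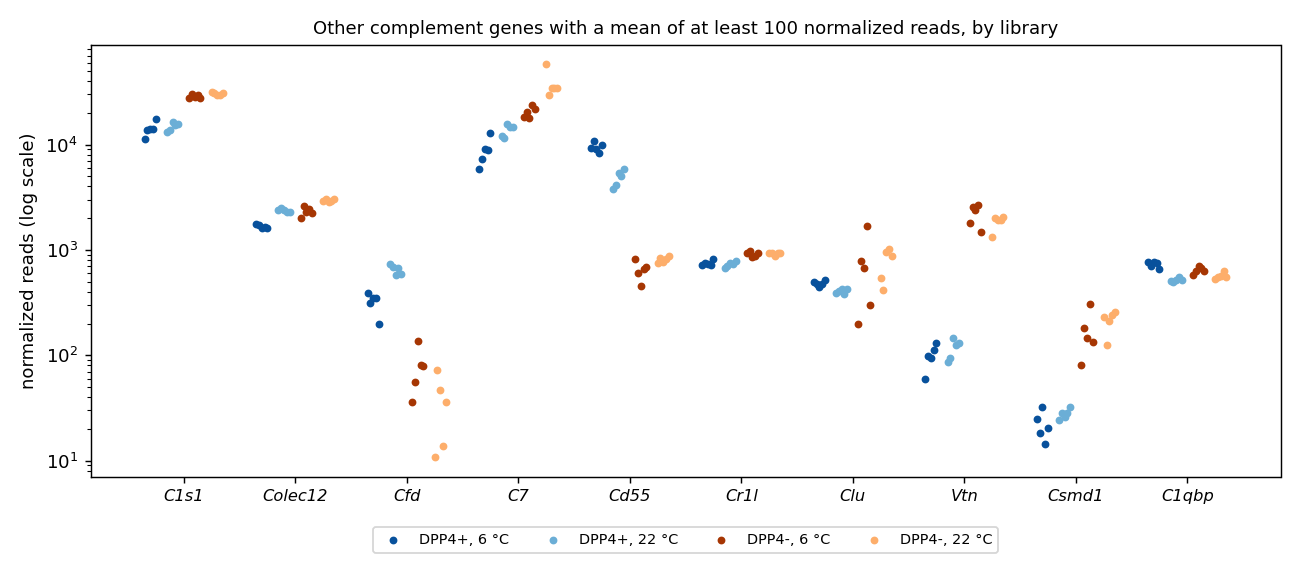
Deposited normalized reads (vertical axis, log scale) of 10 other complement genes with a mean of at least 100, in each library (points) of the 4 groups (colours). Cd55 and Cfd are higher in DPP4+ than in DPP4- cells, Cd55 with a mean of 9489 against 643 at 6 °C, while C1s1, C7, Vtn and Csmd1 are lower in DPP4+ cells.

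Genes for known inducers of complement transcription (NF-kB, C/EBP and interferon regulatory factors, interferon and interleukin 6 family receptors with their JAK and STAT proteins, receptors of tumour necrosis factor and interleukin 1, and the glucocorticoid receptor) were counted as context. Of these 25 genes, on the deposited scale DPP4+ cells had 2 called higher and 21 lower at 6 °C, and 2 higher and 19 lower at 22 °C. Of all genes tested, 38.5% were called higher and 35.7% lower at 6 °C, and 38.7% higher and 36.2% lower at 22 °C. With totals set equal the split was 6 to 11 at 6 °C and 10 to 12 at 22 °C, where all genes were called higher in 63.1% and lower in 18.8% at 6 °C, and higher in 69.7% and lower in 15.6% at 22 °C. In the cold in DPP4+ cells 7 were called higher, among them Cebpb, Il1r1 and Tnfrsf1a, and 2 lower, Cebpa and Nr3c1. Of all genes in this comparison, 23.5% were called higher and 22.6% lower. The split became 5 higher and 7 lower with totals set equal, where 18.2% of all genes were called higher and 25.1% lower. It was 4 and 8 with quantile normalization (3036 and 2898 of all 13057 genes), and 6 and 3 with TMM factors (2540 and 3278). In DPP4- cells 1 was called higher in the cold, Cebpa, where 1.98% of all genes were, and 4 with totals set equal, where 7.01% were.

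Of 15 acute phase genes 9 were tested, and in DPP4+ cells 6 were called lower and none higher in the cold under each of the 4 scalings, among them Ptx3, Saa3, Serpina3n and Steap4, while in DPP4- cells none was called by limma. Of all genes tested in DPP4+ cells, 22.6% were called lower in the cold on the deposited scale and 25.1% with totals set equal. Of the 8 tested neighbours of C2, Cfb and C4b on chromosome 17, DPP4+ cells at 22 °C had 3 called higher and 5 lower, where 38.7% of all genes were called higher and 36.2% lower. With totals set equal, 5 neighbours were called higher and 1 lower, where 69.7% of all genes were called higher and 15.6% lower.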

How the data were processed

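RNA of 20 libraries was sequenced, 5 in each of 4 groups taken from the labels. DESeq2 1.6.3, featureCounts 1.4.6, HISAT2 2.0.1 and Trim Galore 0.4.1 are named, without their roles, in the submitters' processing notes, as are GRCm38 and mm10. The strand setting is not given in the sources used here. The deposited signal is a table of counts that the authors divided by a factor per library, so all values of a library are whole multiples of 1 step: 100% came out whole (tolerance 0.1 read, largest distance 0.0012), which gave back whole reads of 8.49 to 18.8 M per library. The 958 genes with an ID and no symbol held 0.0610 to 0.0824% of each library and stayed in.

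The 13057 genes that averaged 10 or more were tested with limma 3.58.1 in R 4.3.3 on log2(value + 1), in a model of 4 group means with 16 residual degrees of freedom, a variance trend and robust estimation. Benjamini-Hochberg adjustment of two-sided p-values ran over all genes of a contrast, with 5 contrasts and a threshold of 0.05. Fold changes on this scale understate the change of low genes. Alternatives were library totals set equal, TMM factors, quantile normalization, other pseudocounts and filters, sample weights, no variance trend or robust estimation, only the groups compared, a replicate block, leaving out each library, and the count tests of edgeR 4.0.16 and DESeq2 1.42.0 on the recovered reads. The fit was tested on simulated data. Ratios used exact permutation tests (scipy 1.17.1). Loci come from RefSeq on GRCm38, lengths and shared windows from GENCODE vM21.

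The members and lists were chosen with earlier results of these data known. The genes named were the 6 members, other complement genes with a mean of at least 100, and for each member the 3 nearest profiles. Some items that this rule would name are not reported here.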

Additional observations from a re-analysis of the deposited data

Results flagged for a closer look

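In 68 sets of 5 libraries (17 genes in 4 groups), 7 held a library far from the others by Dixon's test, where chance gives about 1 in 20. Replicate 1 of the DPP4- cells at 22 °C was low for C1ra, at 8168 against 10490.5 to 10713 normalized reads in the others, low for Vtn, at 1325 against 1917 to 2057, and high for C7, at 57821 against 29428 to 34561. Replicate 3 of the same group was low for Cfb, at 6013 against 7040.4 to 7418, and for Cr1l, at 872 against 926 to 944. C2 was low in replicate 1 of the DPP4+ cells at 22 °C, at 733 against 933 to 1010.3. C4b was high in replicate 5 of the DPP4+ cells at 6 °C, at 25335 against 15176 to 17679.

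The cold effect differed between DPP4+ and DPP4- cells by limma for 4 of the 24 other complement genes tested, where 33.2% of all genes were called. The 4 were Cd55 at 1.34 (limma adjusted p = 4.66e-06), Cfd at -2.33 (adjusted p = 0.00597), C1qbp at 0.31 (adjusted p = 0.00859) and Masp1 at 2.08 (adjusted p = 0.000234). Masp1, a gene of low level, was named after its values were seen. With totals set equal C1qbp was at 0.17 and no longer called.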

How the results depend on the processing

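C2, C4b and C1ra were called lower in DPP4+ cells under every alternative run. With totals set equal, the comparison of populations at 22 °C changed sign for C3 (0.15), Cfb (0.18), Serping1 (0.35), Colec12 (0.29), Cr1l (0.27) and C1qbp (0.48), and at 6 °C for Serping1 (0.33), Colec12 (0.0051) and Cr1l (0.17). There C3 at 22 °C (limma adjusted p = 0.189) and Colec12 at 6 °C (0.941) were not called. With quantile normalization the sign changed at 22 °C for Cfb (0.13), Serping1 (0.60) and Colec12 (0.040) and at 6 °C for Serping1 (0.51). Cfb (limma adjusted p = 0.127) and Colec12 (0.549) were then not called. These scalings change only the factors or the distribution of each library. Of the 6 members, 2 were then called higher and 3 lower at 22 °C with totals equal, 1 higher and 3 lower with quantile normalization, and 1 higher and 3 lower at 6 °C under both. Of all 13057 genes, 9107 were called higher and 2039 lower at 22 °C with totals equal, and 5038 and 4698 with quantile normalization. At 6 °C these counts were 8240 and 2461 with totals equal, and 5010 and 4640 with quantile normalization. In the cold in DPP4+ cells, 2 members were called lower with sample weights, 0 without a variance trend or robust estimation and 0 to 2 on leaving out a library. Of all 13057 genes, 3887 were called lower with sample weights and 2936 without a variance trend or robust estimation. In DPP4- cells 1 was called higher with totals equal and with quantile normalization, where 915 and 221 of all genes were. The difference of the cold effects called 1 lower under these 2 scalings and 0 to 1 on leaving out a library. Of all genes, 3060 were called lower there with totals equal and 2089 with quantile normalization. Leaving out a library left each other count of members within 1.5 times.

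Whether replicate numbers pair the libraries was not settled, because same-numbered libraries were not compared with differently numbered ones. Deviations of same-numbered libraries correlated at -0.23 to 0.27, over 0.1 in 2 of 5 pairs in each comparison. Between the populations these correlations were 0.029 to 0.156 at 22 °C and 0.017 to 0.107 at 6 °C, all positive. With a replicate block the counts of members were 0 higher and 1 lower (cold, DPP4+), 0 and 0 (cold, DPP4-), 0 and 5 (populations, 6 °C) and 0 and 6 (populations, 22 °C), as without it, and of the other complement genes named C1qbp was then called lower in DPP4+ cells at 22 °C (-0.13, limma adjusted p = 0.0459). Of all genes, the block fit called 3053 higher and 2960 lower (cold, DPP4+), and 270 and 439 (cold, DPP4-). Between the populations it called 5022 and 4656 at 6 °C and 5043 and 4723 at 22 °C. edgeR on whole reads called 5057 genes higher and 4786 lower between the populations at 22 °C and 5026 and 4727 at 6 °C, 3309 and 3231 in the cold in DPP4+ cells and 229 and 397 in DPP4- cells, with the same counts of members as limma. With 5 libraries a group and a factor per library chosen by the authors, some differences between the populations were not separable from the choice of scale. These were differences near those of C3, Cfb and Serping1.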
